A study of Mus musculus with 9 samples.

Results

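Most of the 9 genes described here are known for their expression in the choroid plexus or in the ventricular lining beside it, and all 9 were among the 9803 gene symbols measured. They are Ttr, Folr1, Kl, Clic6, Slc4a5, Tmem212, Abca4, Wfikkn2 and Slc39a4, found by their symbols, and Wfikkn2 had a second table entry. They were chosen by their values on these same arrays, on which most of them had a higher signal in susceptible than in control mice and moved together. The group differences of these 9 genes and their covariation are therefore given as descriptions, with no test.

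RNA bound to Argonaute 2 (Ago2), the protein that holds microRNAs and their target transcripts, was precipitated from amygdala of male C57BL/6J mice and hybridised to Affymetrix whole-transcript arrays. The 3 control arrays (numbered 1, 2 and 4) came from mice without social defeat, and 3 susceptible and 3 resilient arrays came from mice that had passed through chronic social defeat, a stress protocol of repeated exposure to an aggressor, from the age of 10 weeks. Tissue was collected 8 days after defeat ended. How susceptible and resilient mice were told apart is not given in the labels, and neither is whether each array stands for 1 animal, so any p-value measures the spread between arrays, which may be technical. Values are log2 signals from RMA (robust multi-array average, which corrects background, equalises the arrays' distributions and summarises probes). The table had been selected for a difference between the 3 groups, since every symbol had an entry whose analysis-of-variance p was at most 0.287. With 3 arrays a group, precision is limited by their number.

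The choroid plexus is a folded epithelium inside the brain ventricles that secretes cerebrospinal fluid and forms the barrier between blood and that fluid. Its epithelial cells carry ions, bicarbonate, folate and thyroid hormone into the fluid, under a differentiated state that depends on the homeodomain factor Otx2. A strand of choroid plexus lies in the temporal horn of the lateral ventricle, which borders the amygdala, and multiciliated ependymal cells line the ventricle wall. In an array of whole tissue RNA, fewer cells of a type and less RNA per cell cannot be told apart. Here the recovery of each transcript with Ago2 adds a further factor, which was not measured apart.

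Ttr encodes transthyretin, the carrier of thyroxine and of retinol-binding protein that the choroid plexus secretes. Its log2 signal was 13.07, 13.20 and 13.31 in controls 1, 2 and 4, 13.34, 13.30 and 13.42 in susceptible 1, 2 and 3, and 13.14, 13.23 and 13.27 in resilient 1, 2 and 3. Control 4 lay between the susceptible arrays, and the resilient arrays lay wholly below them. The susceptible mean was 0.16 (limma's standard error, SE, 0.064) above the control mean (0.10 without control 1) and 0.14 above the resilient mean. Only 1.28-fold separated the highest from the lowest of the 9 arrays, at a mean signal in percentile 99.9 of the table and close to the highest value of any gene, which was 13.63 to 13.81 depending on the array.

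Folr1 and Kl encode proteins that the choroid plexus epithelium places on its surface or releases into the fluid. Folr1, folate receptor alpha, had 9.42, 9.55 and 10.10 in controls 1, 2 and 4, 10.15, 10.10 and 10.47 in susceptible 1, 2 and 3, and 9.43, 9.86 and 10.06 in resilient 1, 2 and 3. Resilient 1 stood with control 1 at the low end, and control 4 stood level with susceptible 2. Control, susceptible and resilient means were 9.69 ± 0.36, 10.24 ± 0.21 and 9.79 ± 0.32 (SD, n = 3 each). Kl, which encodes klotho, the co-receptor of a phosphate-regulating fibroblast growth factor, had 10.26, 10.40 and 10.82 in controls 1, 2 and 4, 10.98, 10.81 and 11.29 in susceptible 1, 2 and 3, and 10.27, 10.77 and 10.89 in resilient 1, 2 and 3. Again the susceptible and control groups met, at susceptible 2 and control 4. Differences from controls were 0.53 (SE 0.19) for Kl in susceptible mice and 0.15 in resilient mice, and 0.55 (SE 0.20) and 0.09 for Folr1.

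Slc4a5 and Clic6 belong to the ion transport of the epithelium. Slc4a5, a sodium bicarbonate cotransporter, had 8.32, 8.53 and 9.10 in controls 1, 2 and 4, 9.25, 9.09 and 9.81 in susceptible 1, 2 and 3, and 8.41, 9.01 and 9.30 in resilient 1, 2 and 3. All 3 groups overlapped, and the highest and lowest arrays were 2.80-fold apart. Clic6, a member of the chloride intracellular channel family, had 10.11, 10.25 and 10.50 in controls 1, 2 and 4, 10.80, 10.61 and 11.00 in susceptible 1, 2 and 3, and 10.23, 10.44 and 10.71 in resilient 1, 2 and 3. For Clic6 all susceptible arrays lay above all controls, while resilient 3 lay among the susceptible arrays. The susceptible minus control difference was 0.73 (SE 0.27), or 1.66-fold, for Slc4a5 and 0.51 (SE 0.14), or 1.43-fold, for Clic6.

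Abca4, Slc39a4 and Wfikkn2 are better known from other settings. Abca4, the retinoid flippase of photoreceptor cells, had 7.19, 7.41 and 8.08 in controls 1, 2 and 4, 8.32, 7.95 and 8.75 in susceptible 1, 2 and 3, and 7.55, 8.08 and 8.46 in resilient 1, 2 and 3. It had the widest span of the 9 genes, 2.94-fold over the arrays, and the largest mean differences from controls, 0.78 (SE 0.29) in susceptible and 0.47 (SE 0.29) in resilient mice. The resilient difference was 0.25 without resilient 3, 0.28 without control 1, 0.71 without resilient 1 and 0.73 without control 4. Slc39a4, a zinc importer known from the intestine, had 6.63, 7.08 and 7.46 in controls 1, 2 and 4, 7.56, 7.46 and 8.07 in susceptible 1, 2 and 3, and 6.84, 7.53 and 7.70 in resilient 1, 2 and 3. Its susceptible mean was 0.64 (SE 0.27) and its resilient mean 0.30 (SE 0.27) above the control mean, and the groups overlapped. The resilient value was 0.09 without control 1 and 0.13 without resilient 3, and it was 0.50 without control 4 and 0.56 without resilient 1. Wfikkn2, a secreted inhibitor of growth differentiation factors, had 6.09, 5.99 and 6.33 in controls 1, 2 and 4, 6.63, 6.46 and 6.78 in susceptible 1, 2 and 3, and 6.15, 6.20 and 6.37 in resilient 1, 2 and 3. Its susceptible arrays lay above every control and every resilient array, with differences of 0.49 (SE 0.10) and 0.38 (SE 0.10). The second Wfikkn2 entry, at a lower signal, differed by 0.34 between susceptible and control mice and by -0.01 between resilient and control mice, with overlapping groups.

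Tmem212, a transmembrane protein gene known as a marker of ependymal cells in mice, stood apart from the other 8. Its signal was 6.69, 6.59 and 6.69 in controls 1, 2 and 4, 6.57, 7.12 and 7.03 in susceptible 1, 2 and 3, and 6.70, 6.53 and 6.49 in resilient 1, 2 and 3. Susceptible 2 and 3 were high and the other 7 arrays were close together, so that susceptible 1 lay below every control. The susceptible mean was 0.25 (SE 0.12) above and the resilient mean 0.08 below the control mean. The susceptible difference was 0.15 without susceptible 2 and 0.42 without susceptible 1. The resilient difference was -0.14 without resilient 1 and -0.04 without resilient 3.

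**Figure D1:**
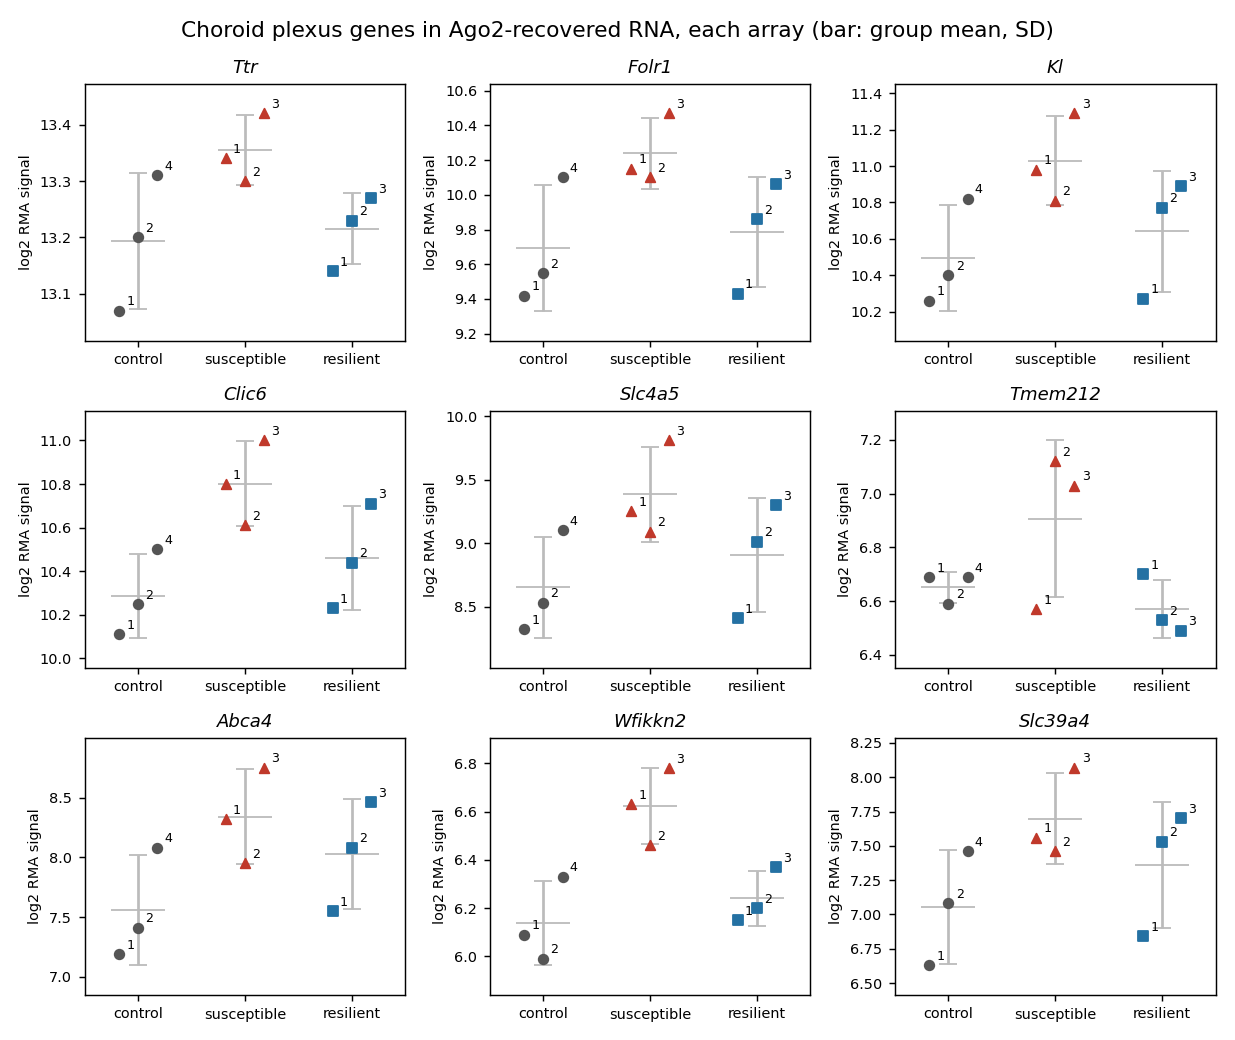
Log2 RMA signal (vertical axis) of the 9 genes on each array, by group (horizontal axis); each point is an array with its number, the wide grey mark is the group mean and the bars are the SD (n = 3). In 8 of the 9 panels susceptible 3 is the highest array of all, and Tmem212 is the exception.

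Read over the 9 genes, susceptible means were above control means for 9 of 9, with a median difference of 0.53, against 57.9% of all genes and a median of 0.05. Resilient means were above control means for 8 of 9 genes (58.4% of all genes), with a median of 0.15 against 0.03. Susceptible means were above resilient means for 9 of 9 (54.1% of all genes), with a median of 0.34 against 0.01. These contrasts share arrays, and the members were selected on them. Complete separation was rarer. All susceptible arrays exceeded all controls for 2 of 9 genes (25.4% of all genes), Clic6 and Wfikkn2, and all resilient arrays exceeded all controls for 0 of 9 (16.7% of all genes). All susceptible arrays exceeded all resilient arrays for 3 of 9 (8.35% of all genes), Ttr, Folr1 and Wfikkn2. For 6 of the 9 genes the 3 controls alone spanned more than the mean difference between susceptible and control mice, as in Abca4, with a span of 0.89 between control 1 and control 4.

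The average of the 9 genes, set relative to the control mean, was -0.22, -0.08 and 0.30 in controls 1, 2 and 4, 0.43, 0.35 and 0.77 in susceptible 1, 2 and 3, and -0.11, 0.21 and 0.39 in resilient 1, 2 and 3 on the log2 scale. Control 4 and resilient 3 thus stood near susceptible 1 and 2, and resilient 1 stood with the lower controls. The group differences of this average were 0.52 for susceptible minus control, 0.16 for resilient minus control and 0.35 for susceptible minus resilient, beside SDs of 0.26, 0.22 and 0.26 within the control, susceptible and resilient groups. Single arrays carried much of the resilient contrasts. Resilient minus control was 0.06 without control 1, 0.31 without control 4, 0.30 without resilient 1 and 0.05 without resilient 3. Susceptible minus resilient was 0.23 without susceptible 3, 0.21 without resilient 1 and 0.09 without both. Susceptible minus control stayed between 0.39 (without susceptible 3) and 0.66 (without control 4) when any 1 array was left out. Gene by gene, leaving out 1 array moved resilient minus control by more than 1.5 times or turned its sign for 9 of 9 genes. It moved susceptible minus resilient that far for 6 of 9 genes and susceptible minus control for 2 of 9, Ttr and Tmem212.

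The order of arrays inside each group was nearly the same from gene to gene. Control 4 was the highest control for 8 of 9 genes (37.3% of all genes), with Tmem212 tied between controls 1 and 4, and control 1 was the lowest for 7 (35.4%). Susceptible 3 was the highest susceptible array for 8 (38.7%) and susceptible 2 the lowest for 8 (26.3%). Resilient 3 was the highest resilient array for 8 (40.5%) and resilient 1 the lowest for 8 (50.6%). Susceptible 3 was the highest of all 9 arrays for 8 genes (23.8%). Tmem212 departed from this order in each group, and Wfikkn2 had its lowest control value in control 2.

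Deviations of each gene from its group means were compared between genes over the 9 arrays. This is a description, since all genes of an array were measured in the same RNA. Among the 28 pairs of the 8 genes other than Tmem212, Pearson's r ran from 0.75 to 0.99 with a median of 0.94, and the median Spearman's rho was 0.95. Slc4a5 followed the average of the other 8 genes with the highest r (0.996, rho 1.00), which was 0.996 also without control 4 and susceptible 3, the 2 arrays farthest from the median. Ttr, in spite of its narrow range, followed it with r = 0.94 (0.88 without those 2 arrays). Wfikkn2 was the loosest of the 8, with r = 0.86 (0.69 without the same arrays), and its second entry had r = 0.77. Tmem212 had r between -0.25 and -0.07 with each of the other 8 and -0.16 with their average (-0.50 without those 2 arrays). No p-values are given, since the members were chosen with this pattern in view.

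**Figure D2:**
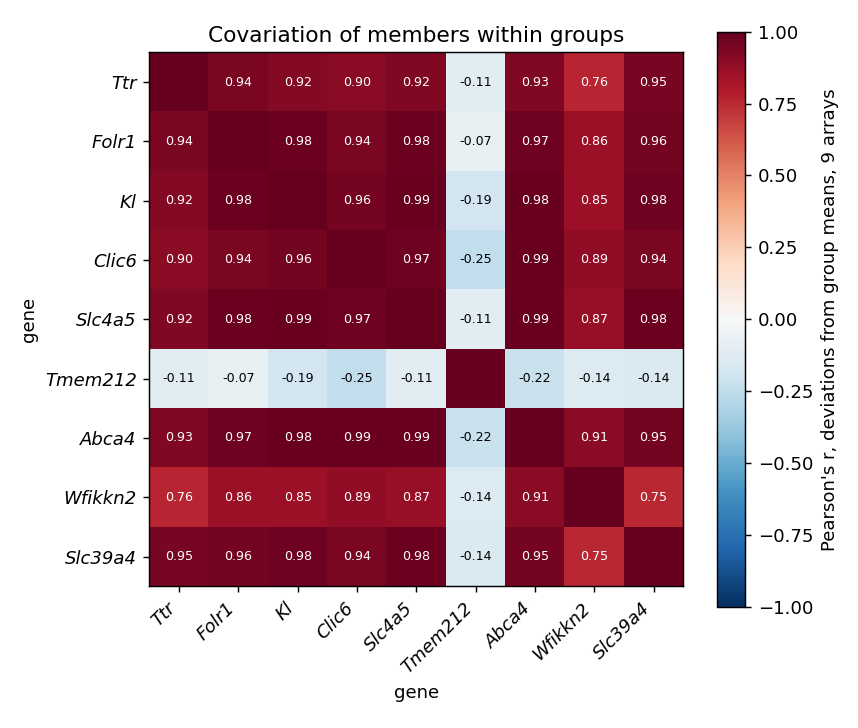
Pearson's r between the 9 genes, computed over 9 arrays from deviations from group means, so that group differences do not enter; rows and columns are genes and the colour runs from -1 to 1. The 8 genes other than Tmem212 form one block with r of at least 0.75, and the Tmem212 row lies between -0.25 and -0.07.

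Spread inside the groups was correspondingly wide. The pooled within-group SD was 0.44 for Abca4, 0.41 for Slc4a5 and 0.40 for Slc39a4, each in percentile 99.9 of all genes. It was 0.30 for Folr1 and 0.29 for Kl (percentiles 99.6 and 99.4), and 0.09 for Ttr (percentile 68.4).

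Promoter sequence was at hand for 5 of the 9 genes, from RefSeq on GRCm38.p6. The 250 bases before the annotated start are shown for 3 genes of the common block and for Tmem212, which stood outside it, so that their promoters can be set side by side. They lie at chr3:122044210-122044459 (plus strand), chr6:83237125-83237374 (plus strand), chr5:150952357-150952606 (plus strand) and chr3:27896369-27896618 (minus strand). Each is written 5′ to 3′ on the strand of its gene, and capitals mark a match to 1 of 2 motifs searched on both strands.
Abca4: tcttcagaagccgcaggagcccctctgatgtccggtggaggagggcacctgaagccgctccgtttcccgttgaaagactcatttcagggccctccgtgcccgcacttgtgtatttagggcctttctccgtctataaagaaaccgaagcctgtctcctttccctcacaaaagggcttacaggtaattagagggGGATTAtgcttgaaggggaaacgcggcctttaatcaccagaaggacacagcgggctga
Slc4a5: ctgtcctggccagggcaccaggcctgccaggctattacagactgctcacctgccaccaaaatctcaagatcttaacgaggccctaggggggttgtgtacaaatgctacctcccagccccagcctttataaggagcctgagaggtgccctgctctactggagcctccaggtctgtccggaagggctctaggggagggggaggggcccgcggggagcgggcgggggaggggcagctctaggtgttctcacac
Kl: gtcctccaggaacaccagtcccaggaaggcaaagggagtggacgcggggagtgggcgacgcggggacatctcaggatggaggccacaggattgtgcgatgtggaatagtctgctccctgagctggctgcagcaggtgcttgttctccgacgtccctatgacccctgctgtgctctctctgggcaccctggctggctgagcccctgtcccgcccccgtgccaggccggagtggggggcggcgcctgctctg
Tmem212: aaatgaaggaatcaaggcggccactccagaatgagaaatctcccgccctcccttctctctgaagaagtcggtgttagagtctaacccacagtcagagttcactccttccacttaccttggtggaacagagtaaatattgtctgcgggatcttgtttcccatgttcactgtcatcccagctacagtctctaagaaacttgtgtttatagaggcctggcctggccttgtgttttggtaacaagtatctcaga

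The motifs were TAATCC, the core bound by OTX homeodomain proteins, and GTAAACA, a core bound by forkhead proteins such as the ciliary regulator Foxj1. Abca4 held GGATTA, the reverse complement of the OTX core, starting 58 bases before the start, and was the 1 of the 5 genes with a match to it. The OTX core was in 6.25% of the 32851 promoters of the same length, and in those of 4 of the 36 other choroid plexus genes with a sequence. The first share is over promoters. The second is over genes, each counted if any of its promoters matched, so they are not like shares. The forkhead core was in none of the 5 promoters and in 3.17% of all promoters. A match describes letters and does not show a site, and the lack of one says only that these letters are not in this window.

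Other genes of the choroid plexus epithelium were taken from a list of 57 written with earlier results of these data known, of which 43 were in the table. They come from the same arrays and the same selected table as the 9 members. In susceptible minus control, 41 of 43 were higher (57.9% of all genes), with a median difference of 0.42 (all genes, 0.05). Of these 43 genes, limma called 0 at an adjusted p under 0.05 over all genes. In all, limma called 1.85% of genes higher and 0.551% lower in this comparison, 235 genes of which 181 were higher. That total was unstable, with 2 genes after quantile normalisation, 3443 with array weights and 0 to 1928 when 1 array was left out. With arrays shifted to one median it was 340, of which only 87 were higher. Without adjustment, at a p under 0.05, 29 of 43 were higher (25.9% of all genes), and 14 of 43 had all susceptible arrays above all controls (25.4% of all genes). In resilient minus control 33 of 43 were higher (58.4% of all genes), with a median of 0.10 (all genes, 0.03). Here limma called 0 (0% of all genes), and none was higher at an unadjusted p under 0.05, against 13.6% of all genes. Single arrays set the resilient minus control median of the list. It was -0.00328 without resilient 3, 0.01 without control 1, 0.06 without control 2 or resilient 2, 0.21 without resilient 1 and 0.24 without control 4. In susceptible minus resilient 42 of 43 were higher (54.1% of all genes), with a median of 0.28 (all genes, 0.01). Here too limma called 0 (0% of all genes), and 10 were higher at an unadjusted p under 0.05, against 6.61% of all genes. The median was 0.16 without resilient 1 and 0.18 without susceptible 3, and susceptible minus control was 0.28 without susceptible 3.

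Calml4, a calmodulin-like gene, had the largest difference on that list, from 7.94 ± 0.24 in controls to 8.69 ± 0.23 in susceptible mice (SD, n = 3 each), or 0.75 (SE 0.17, limma adjusted p = 0.0530). Its susceptible arrays, 8.56, 8.54 and 8.95 in order of number, lay above every other array. The cation channel gene Trpv4 differed by 0.71 (SE 0.24, limma adjusted p = 0.0848), and Cldn2, the tight junction claudin of leaky epithelia, by 0.64 (SE 0.21, limma adjusted p = 0.0798). Otx2, the transcription factor named above, had 8.57, 8.82 and 9.28 in controls 1, 2 and 4, 9.27, 9.32 and 9.97 in susceptible 1, 2 and 3, and 8.58, 9.14 and 9.34 in resilient 1, 2 and 3. The order within each group was that of the member average except that susceptible 1 and 2 changed places. The Otx2 difference was 0.63 (SE 0.25, limma adjusted p = 0.106, or 0.368 with the allowance). The 2 list genes that were lower in susceptible mice, Slc35f1 (-0.12) and the sodium pump subunit Atp1b1 (-0.03), were singled out after their values were seen. Slc35f1 had 10.76, 10.82 and 10.83 in controls 1, 2 and 4 and 10.70, 10.67 and 10.70 in susceptible 1, 2 and 3. Its susceptible arrays thus lay below all controls, as they did for 1448 of all 9803 genes.

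Further genes of the list, singled out for their roles after their values were seen, are given here with their differences. The water channel gene Aqp1 had 6.73, 7.05 and 7.35 in controls 1, 2 and 4, 7.44, 7.39 and 8.10 in susceptible 1, 2 and 3, and 6.85, 7.32 and 7.60 in resilient 1, 2 and 3. Susceptible 3 stood alone at the top, and the difference from controls was 0.60 (SE 0.24, limma adjusted p = 0.105, or 0.368 with the allowance for the selected table). Genes of vitamin A handling also had positive differences in susceptible minus control. They were 0.61 (SE 0.19) for the retinol dehydrogenase Rdh5 and 0.41 (SE 0.20) for the membrane receptor gene Stra6. For Stra6 control 4, at 9.05, lay above susceptible 1 and 2, at 8.80 and 9.02. Among secreted products the growth factor Igf2 differed by 0.39 (SE 0.14) and the lysophospholipase Enpp2, which oligodendrocytes also make, by 0.19 (SE 0.082). The same comparison gave 0.24 (SE 0.14) for the potassium channel subunit Kcne2 and 0.51 (SE 0.20) for the kept entry of 1500015O10Rik.

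Deviations within groups were then set against the member average. The 43 genes had a median r of 0.92 with the member average (quartiles 0.83 and 0.95), against 0.12 (quartiles -0.26 and 0.49) for the 9751 genes outside both. An r above 0.9 was found for 26 of the 43 (60.5%) and for 142 of the 9751 (1.46%). The 10 genes outside the members with the highest r, all between 0.98 and 0.99 over 9 arrays, were Gemin5, Zfp185, Tmem72, Lbp, Pcolce, Kcnj13, Otx2, Rrh, Slc26a2 and Dock9. Of these, Tmem72, Lbp, Kcnj13 and Otx2 were on the choroid plexus list. Kcnj13, an inward rectifier potassium channel of the apical membrane, had 11.22, 11.47 and 11.86 in controls 1, 2 and 4, 11.92, 11.86 and 12.25 in susceptible 1, 2 and 3, and 11.27, 11.77 and 12.00 in resilient 1, 2 and 3. Taken against Ttr alone, the 10 most similar genes were Prkce, Lrrc48, Ythdc2, Chdh, Caps2, Pwwp2a, Vmn1r225, Postn, Zswim6 and Dll1 (r between 0.96 and 0.98), none of them on the list.

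**Figure D3:**
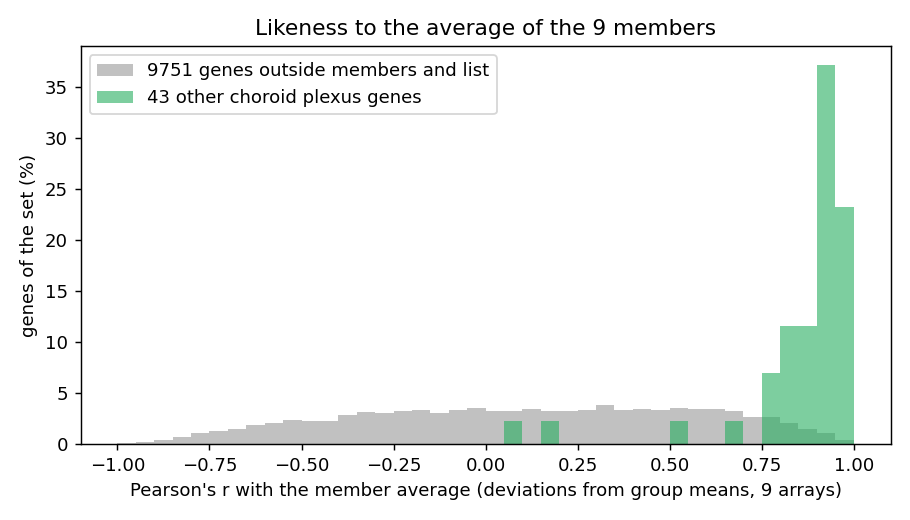
Share of genes (vertical axis, percent of each set) by Pearson's r with the average of the 9 members (horizontal axis, deviations from group means over 9 arrays), for 43 other choroid plexus genes and 9751 genes outside members and list. The choroid plexus genes gather at the right, with 60.5% above 0.9 against 1.46% of the others.

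The ependymal list holds mainly genes of motile cilia, expressed in the cells for which Tmem212 is a marker. Of 37 listed, 14 were in the table, 12 of them higher in susceptible mice than in controls, with a median of 0.15 (0.09 with arrays shifted to one median or quantile-normalised), and limma called 0. Spef2, a gene of the sperm and cilium axoneme, differed by 0.44 (SE 0.15, limma adjusted p = 0.0841) and the adenylate kinase gene Ak7, of motile cilia, by 0.36 (SE 0.11, limma adjusted p = 0.0765). With the allowance for the selected table the limma adjusted p was 0.294 for Spef2 and 0.267 for Ak7. The list average relative to controls was 0.07, 0.18 and 0.24 in susceptible 1, 2 and 3 and -0.02, 0.01 and 0.02 in resilient 1, 2 and 3. Resilient 3, high for 8 members, was thus near the control mean for ependymal genes. The order within the resilient group was still that of the member average. Control 4 (0.10) and susceptible 3 were also the highest arrays of their groups for both averages. Over deviations from group means, the 8 members other than Tmem212 had r between 0.51 and 0.68 with the ependymal average and between 0.84 and 0.99 with the average of the 43 choroid plexus genes. For Tmem212 these values were 0.60 (0.43 without susceptible 1 and control 4) and -0.06 (-0.41 without susceptible 3 and control 4). Without susceptible 1 and control 4 the other 8 had r between 0.38 and 0.72 with the ependymal average. Spearman's rho with that average was 0.36 for Tmem212 and between 0.53 and 0.70 for the other 8. Tmem212 was thus no closer to the ependymal average than the other 8 were, and differed from them in its r with the choroid plexus genes.

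Genes of other cells and neighbouring regions were set beside the members. Of 6 striatal-type and cholinergic genes in the table (13 listed), all 6 were lower in susceptible mice than in controls (4122 of all 9803 genes). Their median was -0.67, and limma called 0 (2.4% of all genes). The list average was -0.34, -0.94 and -0.78 in susceptible 1, 2 and 3 and 0.82, -0.27 and -0.43 in resilient 1, 2 and 3, so that resilient 1, lowest of its group for 8 members, was the highest array for this list. Scn4b, a sodium channel subunit of striatal neurons, differed by -1.04 (SE 0.44, limma adjusted p = 0.114) and Slc18a3, the vesicular acetylcholine transporter, by -0.89 (SE 0.30, limma adjusted p = 0.0862). With the allowance for the selected table the limma adjusted p was 0.398 for Scn4b and 0.301 for Slc18a3. The 8 members other than Tmem212 had r between -0.64 and -0.33 with that list within groups, and between -0.43 and -0.23 without resilient 1 and susceptible 1. The part of dissection in the members' values was not tested.

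The remaining lists covered vessels, meninges, neurons and blood. Endothelial and mural genes (10 of 20 listed) had a median of -0.11 in susceptible minus control. Of these, 8 of 10 were lower (4122 of all 9803 genes) and limma called 0 (2.4% of all genes). Kdr at 0.29 and Rgs5 at -0.25 differed most, and the list median was -0.05 without control 1 and -0.06 without susceptible 1. Meningeal and fibroblast genes (10 of 19 listed) had a median of 0.06 (0.01 with arrays shifted to one median and 0.04 without control 2), with Islr at 0.33 (SE 0.20). Nupr1, of that list and known as a stress-response gene, fell by 0.26 (SE 0.054, limma adjusted p = 0.0461, or 0.161 with the allowance for the selected table). This call did not hold after quantile normalisation (limma adjusted p = 0.0568), with the replicate block (0.0844), or without any 1 of controls 1, 2 and 4, susceptible 2 and 3, and resilient 2 and 3 (0.0566 to 0.118). Of 18 amygdala and neuronal genes 1 was in the table, the glutamate transporter gene Slc17a6, at 9.59 ± 0.27 in controls (SD, n = 3) and -0.16 in susceptible minus control, so that the dissected region could not be checked against its markers. Small lists for hippocampus (C1ql2 at -0.19 and Lct at -0.15), for thalamus, habenula and hypothalamus (Oxt and Avp, both at -0.20), for red blood cells (Alas2 at 0.29 and Hba-a1 at 0.23) and for liver plasma proteins (Apoa2 at -0.22 and Apoa1 at -0.20) had 3, 3, 3 and 2 genes in the table. limma called none of the 11 genes of these small lists in susceptible minus control (2.4% of all genes). Of the 11, 7 had an unadjusted p under 0.05, 2 higher (25.9% of all genes) and 5 lower (14.8% of all genes).

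**Figure D4:**
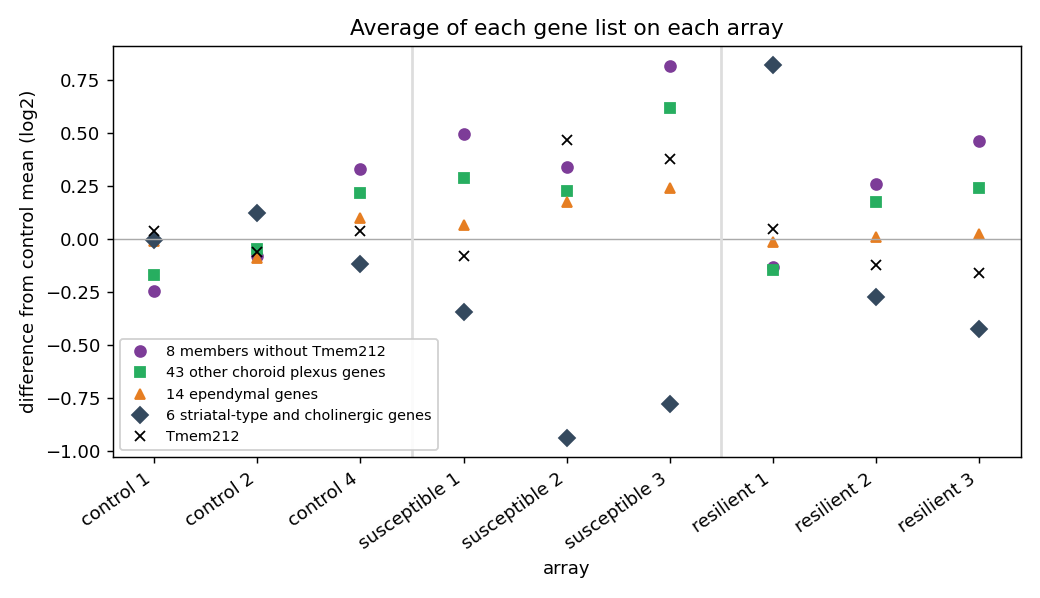
Average difference from the control mean (vertical axis, log2) on each of the 9 arrays (horizontal axis) for 8 members, 43 other choroid plexus genes, 14 ependymal genes, 6 striatal-type and cholinergic genes, and Tmem212 alone. The members and the other choroid plexus genes go up and down together across arrays, with susceptible 3 at 0.81 and 0.62, while the striatal-type list runs from -0.94 in susceptible 2 to 0.82 in resilient 1.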

How the data were processed

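The authors deposited log2 signals, for which the submitters' processing notes name RMA and Partek without versions; array annotation and build are not given in the sources. The 100 ng of RNA per array was labelled with whole-transcript kits, per the labels' protocols. Gene symbols were matched by probe set identifier from the other deposited table, whose 9 value columns match no label and were not used. Of 11772 entries, the one with the highest mean was kept for each of 9803 symbols, named as deposited.

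A limma model with group means (two-sided) used all 9 arrays and genes, unfiltered, with Benjamini-Hochberg adjustment over 9803 genes (R 4.3.3, limma 3.58.1). Judged from the analysis-of-variance p of its entries, the table had been selected for a group difference. Adjusted p-values are then too small, and an alternative divided each p by 0.287 first. The limma script was tested on simulated data. Python 3.11.15, pandas 2.3.3 and matplotlib 3.10.9 drew the plots. Members and gene lists were chosen with earlier results of these data known. Named list genes were those called, or those with the largest differences (4 for choroid plexus, 2 for other lists). Further choroid plexus genes outside this rule were named for their roles after their values were seen. Likeness was ranked for 10 genes. Alternatives were scaling, table entry, a signal filter, array weights, the replicate number as a block, and leaving out arrays.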

Additional observations from a re-analysis of the deposited data

How the results depend on the processing

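The member average kept its sign in all 3 contrasts under every alternative run, array weights (added after seeing the data) included. The members were chosen with these differences known, so the kept sign is a description and no test. Leaving out an array of a group outside a contrast cannot move that contrast, and the signal filter left all 3 unchanged. Susceptible minus control ranged from 0.39 to 0.66, resilient minus control from 0.05 to 0.31 and susceptible minus resilient from 0.21 to 0.47, except that the last was 0.0889 without susceptible 3 and resilient 1 together, a setting chosen after seeing the data. Averaging without Tmem212, also chosen then, gave 0.55, 0.20 and 0.35. The median r between members ranged from 0.88 to 0.95. With the replicate number as a block the differences were 0.55, 0.19 and 0.35. Same-numbered arrays had correlations of deviations from -0.08 to 0.25 over all genes, so the numbers were not taken as pairs. The block called 0 other choroid plexus genes, and in each contrast it called 0% of all genes. The sign of resilient minus control changed for Ttr with arrays shifted to one median (-0.01) and without control 1 or resilient 3 (-0.04 and -0.00425), for Folr1 without control 1 or resilient 3 (-0.04 each), and for Wfikkn2 with its other entry (-0.01).

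limma's count of other choroid plexus genes in susceptible minus control was 0 in most settings, with 2.4% of all genes called in the main fit. In several of these settings 0% of all genes were called. They were the replicate block, leaving out control 1, control 2, susceptible 2 or susceptible 3, and leaving out susceptible 3 and resilient 1 together. The choroid plexus count was 1 of 43 with entries up to the 25th percentile of signal left out (4.07% of all genes called), 10 of 43 with array weights (35.1% of all genes), and 0 to 4 when 1 array was left out. It was 4 of 43 without susceptible 1 (19.7% of all genes) and 4 of 43 without resilient 1 (3.94% of all genes). The cause was not tested. In resilient minus control it was 0 in all settings, where limma called 0% of all genes except without susceptible 1 (0.0306%). No probe-level files were used, so background correction and detection were not varied, and 3 arrays a group limit all of these values.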
